A study of Mus musculus with 7 samples.

Results

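Csf1r, Ccr2, F13a1, Ms4a6c, Ly86, Ly6c2, Tyrobp and Fcgr3 are 8 genes of the monocyte lineage, taken by gene symbol from the 32285 genes counted in single bone marrow cells of knockout-labelled and WT-labelled mice. They were chosen by measured values of these same libraries: Csf1r was among the largest rises between the labels in an earlier fit, and the others are monocyte-lineage genes that were read beside it. The difference between the labels, the levels over cell states and the detection of several of the genes in 1 cell are therefore given as descriptions, and nothing is drawn from their direction. Where a fit across all genes called some of the 8, over all cells or within a group of cells, that count stands beside the share of all genes called, and nothing is read from it either, since it comes from the contrast that chose them.

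Monocytes arise in the bone marrow from myeloid progenitors that also give rise to neutrophils, and the balance between these fates is set by transcription factors such as PU.1 (Spi1), the C/EBP family and Irf8. Csf1r is the receptor for the growth factors CSF1 and IL-34 and carries survival and maturation signals in monocytes and macrophages. Ccr2 is the chemokine receptor through which monocytes leave the marrow. LSK cells are the lineage-negative, Sca-1-positive, cKit-positive fraction, which holds stem cells and early multipotent progenitors, and monocyte genes are known there at low levels in cells that have begun myeloid differentiation.

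The series compared LSK cells sorted from the bone marrow of mice with a full knockout of B4galt1, labelled 129S1/C57Bl/6, B4-/- (3 libraries, KO1 to KO3), with those of WT mice of the background 129S1/C57Bl/6 (4 libraries, WT1 to WT4). B4galt1 is a galactosyltransferase that extends the glycans of glycoproteins with galactose. The ages of the mice and the number of mice behind each library are not given in the sources used here. The labels do not say that replicates came from separate mice, so each p-value below measures only the spread between these libraries, which may be technical.

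On the mouse build GRCm38 all 8 are annotated as protein-coding genes. Csf1r (ENSMUSG00000024621) spans chr18:61100598-61132149 on the plus strand, Ccr2 (ENSMUSG00000049103) chr9:124101950-124113557 on the plus strand, and Tyrobp (ENSMUSG00000030579) chr7:30413760-30417585 on the plus strand. Fcgr3 (ENSMUSG00000059498) spans chr1:171051174-171064935 and Ly6c2 (ENSMUSG00000022584) chr15:75108158-75111970, both on the minus strand. Ms4a6c (ENSMUSG00000079419) spans chr19:11469366-11482192 on the plus strand. F13a1 (ENSMUSG00000039109; chr13:36867178-37050244, minus strand) and Ly86 (ENSMUSG00000021423; chr13:37345208-37419036, plus strand) lie on the same chromosome with their starts 295 kb apart.

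The libraries held between 14970791 and 89747946 UMIs (unique molecular identifiers, each standing for 1 captured transcript), and 1172 to 8862 cells per library passed the limits on depth and mitochondrial RNA. Cell barcodes fell into 2 sets: KO1, KO2 and WT1 to WT3 drew on a larger barcode list (list A, 900 to 958 different openings of the barcode) and KO3 and WT4 on another (list B, 480 openings). The lists also differed in the share of barcodes that passed as cells, 32.4% to 49.9% in list A against 98.3% and 96.2% in list B, and in the ribosomal share of UMIs, 13.7% to 20.8% against 30.0% and 30.2%. KO3 and WT4 shared 68 barcodes among their kept cells, against at most 2 in any other pair of libraries. B4galt1 itself did not separate the labels: it stood at 53.2, 53.1 and 31.8 CPM (counts per 1000000 UMIs, scaled between libraries) in KO1 to KO3 and at 54.1, 60.8, 52.1 and 39.5 CPM in WT1 to WT4, a log2 difference of -0.14 (SE 0.12). Since no source used here says which exons were removed, these counts at the transcript's end may lie outside the deletion and do not check the label, and groups are named below as knockout-labelled and WT-labelled.

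Promoter windows of 250 bases before the start were searched on both strands for GAGGAA, the core that the ETS factor PU.1 binds, TGTGGT, the core bound by Runx factors, and TATAAA, the TATA box. RefSeq's table for GRCm38.p6 held an entry for 6 of the 8 genes. GAGGAA was found for 3 of them (Fcgr3, F13a1 and Ly6c2), against 23.3% of all 32851 promoter windows of that length. TGTGGT was found for 1 (Ly6c2), against 14% of all windows, and TATAAA for 0, against 12.4%. The 2 windows below are shown because each holds a GAGGAA match and no base of an exon. They are written 5′ to 3′ on the gene's own strand, with the capitals marking the GAGGAA match. F13a1's window is chr13:37050245-37050494, minus strand, and Ly6c2's is chr15:75111972-75112221, minus strand. A match is a description of the letters and no measure of binding, which was not assayed.
F13a1: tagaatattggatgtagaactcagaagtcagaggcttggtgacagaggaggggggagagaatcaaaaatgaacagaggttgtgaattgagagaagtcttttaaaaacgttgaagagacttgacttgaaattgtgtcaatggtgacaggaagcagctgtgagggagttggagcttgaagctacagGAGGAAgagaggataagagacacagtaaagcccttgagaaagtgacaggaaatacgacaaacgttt
Ly6c2: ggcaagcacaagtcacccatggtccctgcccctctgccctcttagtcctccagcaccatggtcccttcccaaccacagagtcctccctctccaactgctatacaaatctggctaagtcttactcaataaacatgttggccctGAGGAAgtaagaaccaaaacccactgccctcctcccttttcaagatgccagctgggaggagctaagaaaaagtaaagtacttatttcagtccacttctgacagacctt

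Summed over all kept cells of a library, the growth factor receptor Csf1r stood at 26.4, 26.9 and 10.2 CPM in KO1 to KO3 and at 10.1, 5.89, 4.25 and 3.55 CPM in WT1 to WT4. The groups did not overlap, although KO3 (10.2) and WT1 (10.1) nearly met and changed order when levels were scaled by plain totals. Means were 21.1 ± 9.52 CPM (SD, n = 3) and 5.94 ± 2.93 CPM (SD, n = 4), a log2 difference of 1.85 (SE 0.25) with the barcode list in the fit. The receptor rested on 80 to 1190 UMIs per library. A sum over a library cannot tell more cells of a type from more RNA per cell.

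The chemokine receptor Ccr2 stood at 169, 211 and 93.1 CPM in KO1 to KO3 and at 18.5, 17.7, 10.1 and 39.9 CPM in WT1 to WT4. Every knockout-labelled library was above every WT-labelled one, and WT4, of list B, was the highest of its group. Means were 158 ± 59.7 (SD, n = 3) and 21.5 ± 12.8 CPM (SD, n = 4), a log2 difference of 2.95 (SE 0.53), which was the largest of the 8. With 1 library left out it ran from 2.65 (without KO2) to 3.61 (without KO3 or without WT4).

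Tyrobp encodes DAP12, the adaptor with an ITAM motif that carries the signal of many activating receptors of myeloid and NK cells, and Fcgr3 is a low-affinity receptor for IgG. Tyrobp stood at 188, 105 and 140 CPM in KO1 to KO3 and at 71.5, 45.5, 68.6 and 111 CPM in WT1 to WT4, a log2 difference of 0.98 (SE 0.26). WT4 lay above KO2, so the groups overlapped on this scale, although not when levels were scaled by plain totals. Without KO1 the difference was 0.58. Fcgr3 stood at 28.5, 7.26 and 5.62 CPM in KO1 to KO3 and at 5.19, 2.98, 1.80 and 5.74 CPM in WT1 to WT4, a log2 difference of 1.73 (SE 0.75). KO1 alone was far above the rest, and KO3 lay just below WT4. The difference was 0.64 without KO1 and 2.48 without KO3.

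F13a1 encodes the A subunit of coagulation factor XIII, a transglutaminase that crosslinks fibrin and is made by monocytes and megakaryocytes. It stood at 260, 488 and 26.6 CPM in KO1 to KO3 and at 86.8, 54.0, 17.5 and 8.40 CPM in WT1 to WT4, a log2 difference of 2.50 (SE 0.59). Both list B libraries were far below the list A libraries of their own label, and KO3 lay below WT1 and WT2.

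Ly86, also called MD-1, is the secreted partner of the Toll-like protein RP105 (Cd180). It stood at 51.4, 41.6 and 18 CPM in KO1 to KO3 and at 25.1, 13.8, 10.4 and 8.46 CPM in WT1 to WT4, a log2 difference of 1.38 (SE 0.27). Only KO3 was inside the range of the WT-labelled libraries, under WT1.

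Ly6c2 encodes a form of Ly6C, the surface antigen used to sort classical monocytes. It stood at 323, 128 and 21.8 CPM in KO1 to KO3 and at 55.2, 25.4, 15.6 and 35.8 CPM in WT1 to WT4, a log2 difference of 1.95 (SE 0.98). The SE was the largest of the 8, and KO3 lay below WT1, WT2 and WT4. The difference was 1.05 without KO1 and 2.83 without KO3. Over the last 300 bases of the transcript, where this assay counts, Ly6c2 matched Ly6c1 at 291 of 297 aligned bases (98.0%), so the split of UMIs between these genes is uncertain. The other pairs of member and relative that were aligned matched at 64.7% to 77.1% of 68 to 192 aligned bases.

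Ms4a6c is a membrane protein of the four-pass MS4A family, which is known from monocytes and macrophages. It stood at 140, 103 and 66.0 CPM in KO1 to KO3 and at 41.1, 26.8, 24.9 and 32.5 CPM in WT1 to WT4. The groups did not overlap, with means of 103 ± 36.9 (SD, n = 3) and 31.3 ± 7.29 CPM (SD, n = 4) and a log2 difference of 1.70 (SE 0.23).

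In edgeR's quasi-likelihood fit with the barcode list as covariate, 14608 genes were tested and 1.11% of them were called at a Benjamini-Hochberg adjusted p under 0.05 in either direction, 0.472% higher under the knockout label. Csf1r and Ms4a6c were 2 of 8 members among the higher calls, from the contrast that chose Csf1r, and nothing is read from that count. All 8 had a log2 difference above 0, with a median of 1.79 against 0.0084 over all genes tested. Csf1r, Ccr2 and Ms4a6c were the 3 of 8 whose CPM did not overlap, with every knockout-labelled library higher, beside 2.68% of all tested genes. With levels scaled by plain totals they were Ccr2, Ms4a6c and Tyrobp. In list A alone 4 of 8 members were called, beside 2.44% of genes. Without the list in the fit edgeR called 0 genes and 0 members (697 genes at an unadjusted p under 0.05). With 1 library left out, the genes called ranged from 16 (without WT3) to 349 (without KO3) and the members called from 1 to 5.

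**Figure D1:**
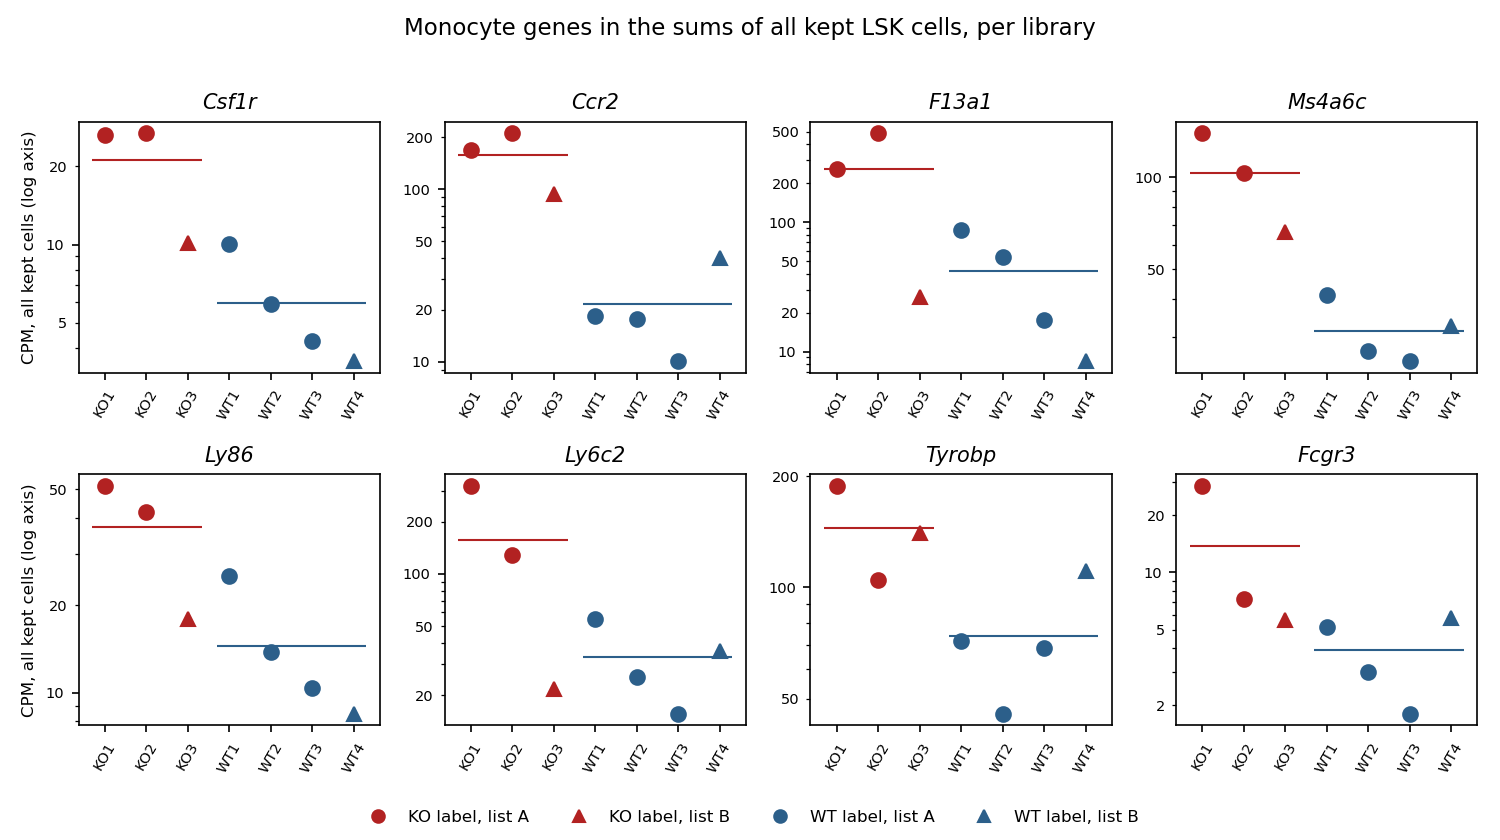
Level of each of the 8 genes in CPM (log axis) in the 7 libraries, 1 panel per gene, summed over all kept cells, with circles for list A, triangles for list B and horizontal lines for the mean of each label. Csf1r, Ccr2 and Ms4a6c are the genes whose knockout-labelled libraries all lie above the WT-labelled ones, and the list B library KO3 is the lowest knockout-labelled one for all but Tyrobp.

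Within list A, the knockout-labelled KO1 and KO2 were above WT1, WT2 and WT3 for 8 of 8 genes, beside 18% of all tested genes. The log2 ratios of the list A means were 3.62 for Ccr2, 2.82 for F13a1, 2.81 for Ly6c2, 2.43 for Fcgr3, 1.98 for Csf1r, 1.97 for Ms4a6c, 1.50 for Ly86 and 1.24 for Tyrobp. List B has 1 library per label and thus no replicate check. There the log2 ratio of KO3 to WT4, with an exact 95% interval that covers counting error only, was 1.63 for F13a1 (1.50 to 1.76), 1.48 for Csf1r (1.28 to 1.69) and 1.19 for Ccr2 (1.13 to 1.25). Ly86 stood at 1.06 (0.92 to 1.19), Ms4a6c at 0.99 (0.92 to 1.06) and Tyrobp at 0.31 (0.27 to 0.35). Ly6c2 was lower in KO3 than in WT4, at -0.75 (-0.84 to -0.66), and the interval of Fcgr3 held 0, at -0.062 (-0.26 to 0.14). These list B ratios use plain totals, while those of list A use scaled CPM. On scaled CPM the list B ratios were 1.66 for F13a1, 1.51 for Csf1r, 1.22 for Ccr2 and 1.09 for Ly86. They were 1.02 for Ms4a6c, 0.34 for Tyrobp, -0.030 for Fcgr3 and -0.72 for Ly6c2. On that scale the ratio was smaller in list B than in list A for all 8 genes. Whether the lists differ in it was not tested, since list B has no replicates.

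To place the genes among cell states, each cell with at least 3000 UMIs was thinned to 3000 and put into the first of 15 gates whose marker sum it met, with no member among the markers. A gate is a range of marker counts and not a cell type. The Irf8 and granule gate needed at least 1 UMI of Irf8, a factor of monocyte and dendritic fate, and at least 3 UMIs of the primary granule genes Mpo, Elane, Prtn3 and Ctsg. The granule-high gate needed at least 10 of these UMIs, and the early Mpo gate 3 to 9, both without Irf8. The Dntt gate held cells with Dntt, the terminal transferase of early lymphoid cells, and the stem-cell gate needed at least 2 UMIs over a set of stem-cell genes that included Procr, Hlf, Mecom, Fgd5 and Slamf1. The Flt3 gate took remaining cells with Flt3, and ungated cells met no gate.

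Many cells lay near these limits. Between 283 and 2916 cells per library had a granule sum of 2 to 4 and 17 to 481 had a sum of 8 to 11. Of the cells with Irf8, those with 1 UMI were 392 of 658 in KO1, 227 of 412 in KO2 and 655 of 951 in KO3, and 130 of 196, 101 of 137, 98 of 134 and 597 of 776 in WT1 to WT4. The Irf8 and granule gate held 527, 340 and 677 cells in KO1 to KO3 (17.9%, 21.8% and 9.94%) and 96, 64, 33 and 325 cells in WT1 to WT4 (8.19%, 5.96%, 2.27% and 3.74%). The granule-high gate held 17.6%, 17.3% and 6.51% of cells in KO1 to KO3, and 2.05%, 1.96%, 0.962% and 1.32% in WT1 to WT4. The stem-cell gate held 22.9%, 28.0% and 27.6% against 43.6%, 52.1%, 54.9% and 36.1%. No share of cells is tested here, since Irf8, a gate gene, itself passed the test between the labels.

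Among the gates filled in every library, the 8 genes together had their highest mean in the Irf8 and granule gate, at 21.4, 23.6 and 8.89 UMIs per 10000 in KO1 to KO3 and at 11, 5.44, 5.69 and 8.68 in WT1 to WT4. In the stem-cell gate the sum was 1.22, 0.875 and 0.707 in KO1 to KO3 and 0.752, 0.416, 0.608 and 0.789 in WT1 to WT4. Every library was thus higher in the Irf8 and granule gate than in the stem-cell gate, and this held for each of the 8 genes in 7 of 7 libraries. The mean level over libraries was higher by 57.9 times for F13a1, 41.9 times for Ly6c2, 29.0 times for Ccr2, 18.5 times for Csf1r, 17.4 times for Ly86, 10.6 times for Fcgr3, 8.14 times for Ms4a6c and 6.01 times for Tyrobp. Within single libraries the ratio ran from 27.9 to 266 for F13a1, 31.4 to 281 for Ly6c2, 14.4 to 46.6 for Ccr2 and 12.5 to 36.2 for Csf1r. It ran from 7.84 to 97.1 for Ly86, 3.88 to 31.6 for Fcgr3, 5.11 to 12.3 for Ms4a6c and 4.32 to 9.30 for Tyrobp. Some rest on few UMIs: Fcgr3 in WT3 had 1 in the Irf8 and granule gate, and Ly6c2 had 1 in the stem-cell gate of WT2 and of WT3. Cells of the first gate also carried more RNA, with median UMIs per library of 11679 to 19769 against 5520 to 9416 in the stem-cell gate. The levels are per UMI, and cells of high UMI count may include doublets, which were not removed.

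In the 6 gates that held 20 or more cells in each library, the mean sums ran from 12.1 in the Irf8 and granule gate through 7.92 in ungated, 3.11 in Flt3-gated, 2.10 in early Mpo-gated and 1.91 in Dntt-gated cells to 0.767 in the stem-cell gate. Along this order only the last step, from Dntt-gated to stem-cell-gated cells, exceeded the larger SD of the pair, and it was seen in 7 of 7 libraries. The step from the Irf8 and granule gate to ungated cells was in that direction in 6 of 7 libraries, with WT2 as the exception. For Csf1r the step from the Irf8 and granule gate to the next one exceeded the larger SD (0.351 to 0.143 UMIs per 10000), as it did for Ly86 (0.798 to 0.289). So did the step for Csf1r from early Mpo-gated to stem-cell-gated cells (0.0784 to 0.0190) and that for Tyrobp from Dntt-gated to stem-cell-gated cells (0.706 to 0.330). Among these 6 gates, Csf1r, F13a1, Ms4a6c, Ly86 and Tyrobp were highest in the Irf8 and granule gate in 6 of 7 libraries. Ccr2 and Ly6c2 were highest there in 5 and Fcgr3 in 4. The granule-high gate is not among the 6, since it held 14 cells in WT3. Its summed level was 11.02, 12.02 and 6.31 in KO1 to KO3, below the Irf8 and granule gate. In WT1, WT2 and WT4 it was 11.49, 6.35 and 9.87, above that gate. F13a1 was also higher in granule-high cells in WT1 (4.32) and WT4 (0.877), but not in WT2 (1.74) or KO1 to KO3.

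**Figure D2:**
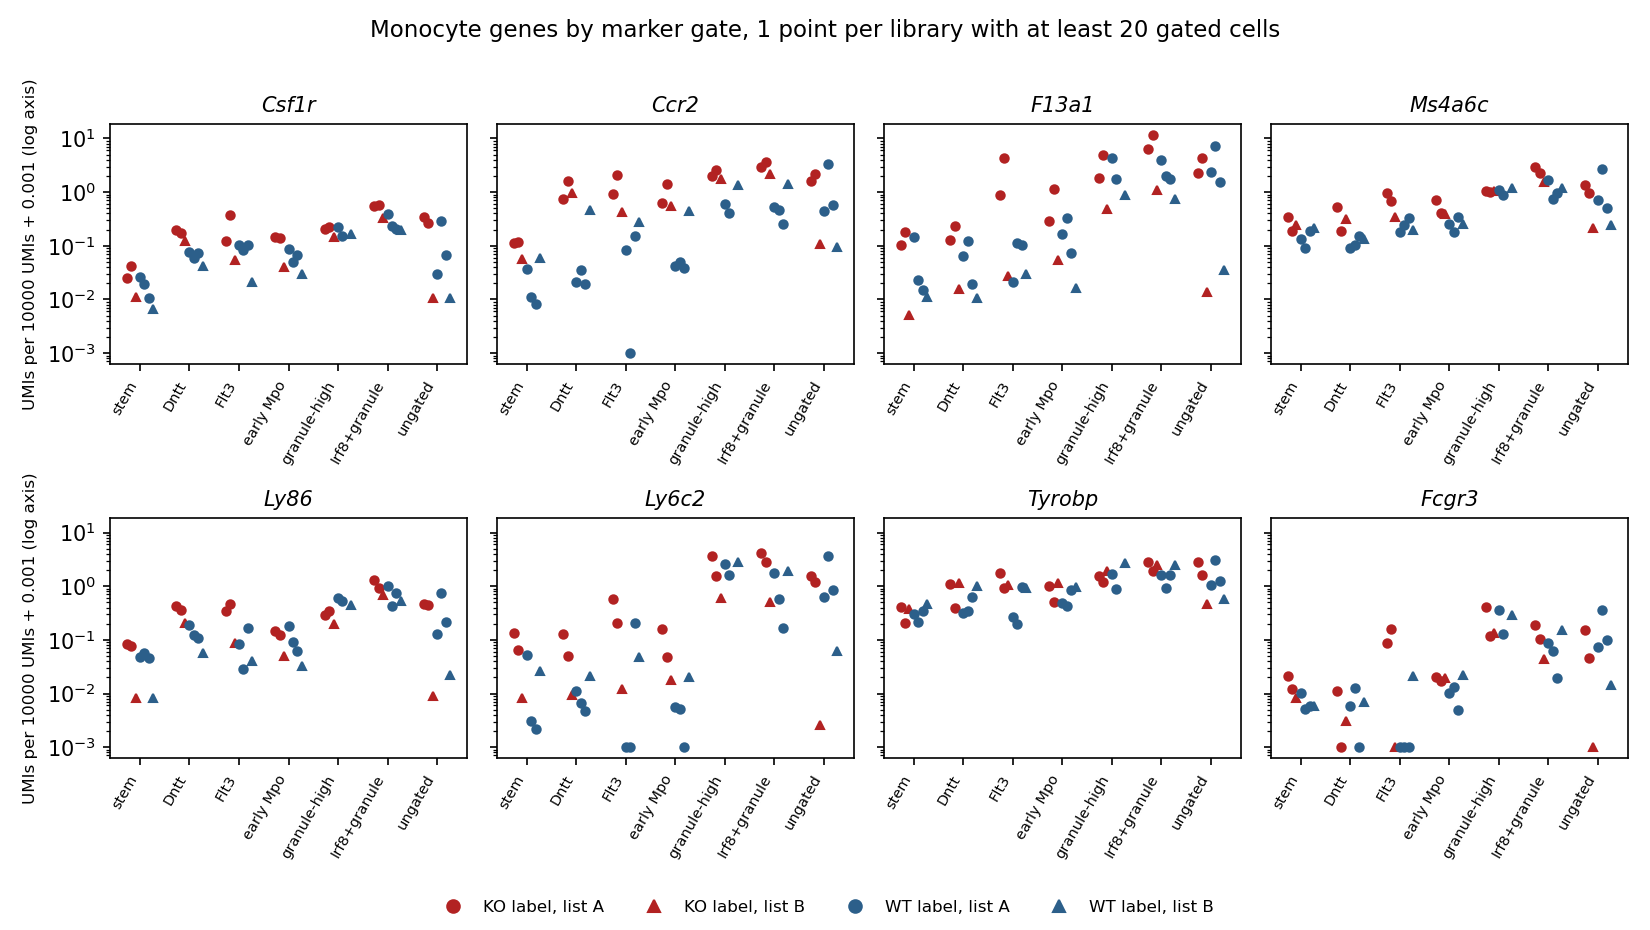
Level of each gene in UMIs per 10000 (log axis, with a small offset so that levels of 0 appear at the bottom), by gate, with 1 point per library of at least 20 gated cells, the label shown by colour and the barcode list by symbol. For each gene the Irf8 and granule gate lies above the stem-cell gate in all 7 libraries.

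Levels also ran high in gates that few libraries filled. In cells with secondary granule genes (Ltf, Camp, Ngp, Lcn2 and Cd177), Ly6c2, Tyrobp and Fcgr3 had their highest means of any gate, 7.08, 7.17 and 0.672 UMIs per 10000 over 2 libraries, KO1 and WT3. The sum of the 8 there was 21.1 in KO1 and 13.1 in WT3, against 21.4 and 5.69 in the Irf8 and granule gate. Ms4a6c had its highest mean in cells gated on dendritic-cell genes, 1.78 over KO3 and WT4. It stood there at 2.60 and 0.947, against 1.56 and 1.17 in the Irf8 and granule gate. In erythroid-gated cells, which should lack these genes, the sum of the 8 was 0.251 per 10000 in KO3 and 0.223 in WT4, and in megakaryocyte-gated cells 0.415 and 0.772. Both are at or under the stem-cell gate of the same libraries. Mature macrophage markers were near 0 in the Irf8 and granule gate: C1qa, C1qb, C1qc, Adgre1, Cd5l and Mrc1 together gave 7, 5 and 3 UMIs in KO1 to KO3 and 1, 0, 2 and 0 in WT1 to WT4.

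The share of each gene's UMIs that came from the 2 gates with high granule genes (Irf8 and granule, granule-high) differed by library. For Csf1r it was 78.0%, 81.0% and 66.9% in KO1 to KO3 and 55.2%, 40.2%, 15.2% and 40.6% in WT1 to WT4. For F13a1 it was 86.9%, 91.6% and 85.4% against 74.7%, 39.7%, 35.8% and 71.4%. For Tyrobp it was 64.3%, 78.0% and 43.4% against 36.4%, 23.0%, 9.62% and 18.2%. Each knockout-labelled library was above every WT-labelled one for these 3 genes, as it was for Ccr2, Ly86 and Ly6c2. The groups overlapped for Ms4a6c (KO3 55.4%, WT1 59.0%) and for Fcgr3 (KO3 39.9%, WT1 46.4%). Each of these gates also held a larger share of cells in every knockout-labelled library than in any WT-labelled one. In the Irf8 and granule gate KO3 was the lowest of its label at 9.94% and WT1 the highest of its own at 8.19%. In the granule-high gate they stood at 6.51% and 2.05%. The share of all genes with such an order was not computed, and nothing is read from it. In WT2, 51.8% of Ccr2, 36.6% of F13a1 and 38.4% of Ly6c2 UMIs came from 31 ungated cells.

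Within the Irf8 and granule gate Ccr2 stood at 2.90, 3.67 and 2.20 UMIs per 10000 in KO1 to KO3 and at 0.519, 0.473, 0.259 and 1.43 in WT1 to WT4, without overlap. Csf1r stood at 0.550, 0.564 and 0.330 against 0.385, 0.228, 0.203 and 0.199, with KO3 under WT1. F13a1 stood at 6.44, 11.5 and 1.10 against 4.03, 2.00, 1.74 and 0.746, with KO3 inside the WT-labelled range. Fitted within the gate, the log2 differences were 2.18 (SE 0.51) for Ccr2, 1.44 (SE 0.39) for F13a1, 0.98 (SE 0.28) for Ms4a6c, 0.90 (SE 0.19) for Csf1r, 0.56 (SE 0.26) for Tyrobp and 0.54 (SE 0.26) for Ly86. Ly6c2 (0.99, SE 1.16) and Fcgr3 (0.085, SE 0.71) had SEs above their differences. With 1 library left out, Ccr2 reached 2.93 (without KO3), Tyrobp was 0.23 without KO1 and 0.35 without WT2, and Ly86 was 0.31 and 0.32 without the same libraries. Ly6c2 ran from 0.35 (without KO1) to 2.00 (without KO3), and Fcgr3 from -0.51 to 1.25 without the same libraries. edgeR called 0 of the 8 in this gate, beside 0.113% of the 11521 genes tested, and DESeq2 3, beside 0.712%. On TMM-adjusted CPM 3 of 8 (Ccr2, Csf1r and Ms4a6c) did not overlap, beside 1.61%, and on UMIs per 10000 only Ccr2 did not. The cells of this gate also differed between the labels in the granule genes that define it. Their median granule sum was 16, 16 and 8 UMIs in KO1 to KO3 and 7, 5, 5 and 5 in WT1 to WT4. The part of that in the differences within the gate was not tested.

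In Dntt-gated cells the sum of the 8 genes was 3.25, 3.01 and 2.79 UMIs per 10000 in KO1 to KO3 and 0.766, 0.800, 0.997 and 1.75 in WT1 to WT4, without overlap. Ccr2 stood at 0.744, 1.60 and 0.970 UMIs per 10000 in KO1 to KO3 and at 0.0199, 0.0345, 0.0184 and 0.471 in WT1 to WT4, without overlap. The WT-labelled libraries of list A were far below WT4: the ratio of means was 48.2-fold in list A and 2.06-fold in list B. Csf1r stood at 0.198, 0.175 and 0.122 against 0.0746, 0.0576, 0.0736 and 0.0415, and Ly86 at 0.426, 0.362 and 0.207 against 0.189, 0.121, 0.107 and 0.0554, both without overlap. The fitted log2 differences were 3.13 (SE 1.04) for Ccr2, 1.68 (SE 0.24) for Ly86, 1.50 (SE 0.28) for Csf1r, 1.50 (SE 0.28) for Ms4a6c, 1.31 (SE 0.49) for F13a1 and 0.58 (SE 0.39) for Tyrobp. The value of Ccr2 was 5.61 without KO3 and 5.599 without WT4, and that of Tyrobp 0.057 without KO1. Of 6 members tested 3 were called, Csf1r, Ms4a6c and Ly86, beside 0.252% of 10705 genes, and 4 of 6 did not overlap, beside 1.21%. These calls come from the contrast that chose the members, and nothing is read from them.

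In the stem-cell gate the fitted log2 differences ran from -0.019 (SE 0.23) for Tyrobp to 1.62 (SE 0.65) for Ccr2. With 1 library left out, Tyrobp ran from -0.41 to 0.15, and Ccr2 was 2.82 without KO3 or without WT4. There Ccr2 stood at 0.112, 0.118 and 0.0549 UMIs per 10000 in KO1 to KO3 and at 0.0361, 0.0101, 0.0071 and 0.0573 in WT1 to WT4, so that KO3 lay below WT4. Of the 7 members tested there, 0 were called by edgeR, beside 0.158% of genes, and 0 by DESeq2, beside 0.544%, and 0 were without overlap, beside 1.01%. In early Mpo-gated cells Ccr2 stood at 0.620, 1.40 and 0.552 against 0.0409, 0.0491, 0.0383 and 0.442, with a log2 difference of 2.57 (SE 1.03), which was 4.53 without KO3 or without WT4. Of 6 members tested there 2 (Ccr2 and Ms4a6c) did not overlap, beside 1.09%, and 0 were called by edgeR, beside 0.193%, and 1 by DESeq2, beside 0.56%. In ungated cells the members tested had differences of either sign, from -0.52 for Ly6c2 to 1.26 for Csf1r, with 0 of 7 without overlap, beside 0.679%. Ly6c2 was 0.26 there without WT2, and Csf1r 0.74 without KO1 and 0.80 without WT1. Differences between gates in the effect of the label were not tested.

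The label difference over all cells was then recomputed with each gate given the same share of UMIs in every library, an alternative chosen after seeing the data. This difference was the label coefficient of a least-squares fit of log2 levels with the barcode list. The coefficient went from 1.84 to 0.95 for Csf1r, from 2.87 to 1.93 for Ccr2, from 2.54 to 1.00 for F13a1 and from 1.62 to 0.69 for Ms4a6c. It went from 1.35 to 0.40 for Ly86, from 1.72 to 0.43 for Ly6c2, from 1.48 to 0.52 for Fcgr3 and from 0.87 to 0.25 for Tyrobp. All 8 were smaller at equal shares and all stayed above 0. At equal shares Ccr2 stood at 1.06, 1.63 and 0.810 UMIs per 10000 in KO1 to KO3 and at 0.261, 0.296, 0.163 and 0.544 in WT1 to WT4. Ms4a6c stood at 0.974, 0.690 and 0.573 against 0.526, 0.430, 0.426 and 0.457, and these 2 genes kept groups without overlap, while Csf1r (0.186, 0.201 and 0.0924 against 0.123, 0.0877, 0.0696 and 0.0602) did not. In list A alone the log2 ratios of group means at equal shares were 2.49 for Ccr2, 1.35 for F13a1, 1.32 for Ly6c2, 1.06 for Fcgr3, 1.05 for Csf1r, 0.85 for Ms4a6c, 0.48 for Ly86 and 0.40 for Tyrobp. In list B alone they were 0.62 for Csf1r, 0.58 for Ccr2, 0.33 for Ms4a6c, 0.13 for F13a1 and 0.12 for Ly86, while Tyrobp went to -0.10, Ly6c2 to -1.88 and Fcgr3 to -0.83. Inside the pooled group, shares were not held equal. It included the secondary granule gate, with 55.1% of Ly6c2 UMIs in WT3, and the gate on T and NK genes, with 40.9% in WT4. The granule-high gate of WT3 entered with 14 cells. The gates use Irf8 and granule genes, which may vary with the members inside a gate. Inside the Irf8 and granule gate the median granule sum was higher in each knockout-labelled library than in any WT-labelled one. Equal shares therefore do not make the cells of a gate alike between the labels, and the part of that in these values was not tested.

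**Figure D3:**
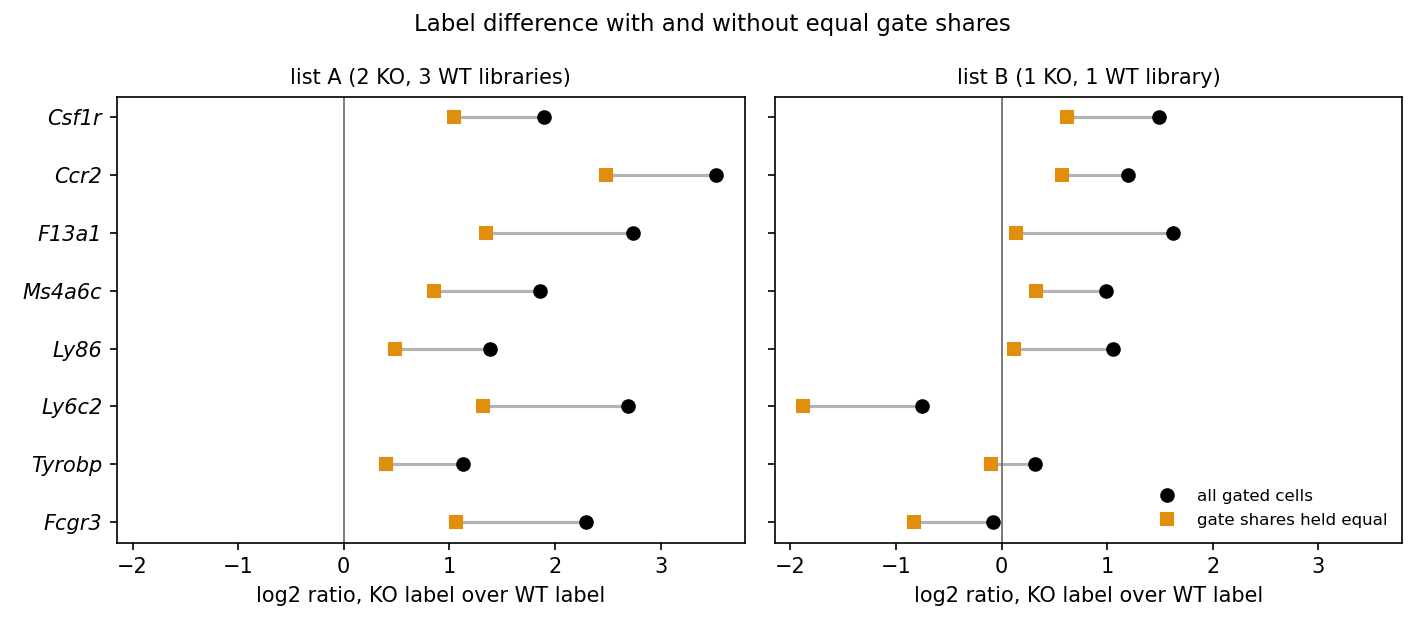
Log2 ratio of the mean level under the knockout label to that under the WT label for each gene, in list A (left) and list B (right), over all gated cells (circles) and with gate shares held equal (squares). Each square lies left of its circle, and in list B the squares of Ly6c2, Tyrobp and Fcgr3 lie below 0.

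In single cells, a share of cells with a UMI depends on depth, so shares are given in cells thinned to 3000 UMIs and then unthinned. In the Irf8 and granule gate Ccr2 was seen in 49.3%, 57.6% and 41.1% of cells in KO1 to KO3 and in 10.4%, 9.38%, 9.09% and 25.8% in WT1 to WT4. Unthinned, the shares were 82.7%, 84.4% and 72.7% against 26.0%, 26.6%, 18.2% and 54.5%. The groups did not overlap on either scale. In Dntt-gated cells the thinned shares were 10.7%, 28.4% and 16.6% in KO1 to KO3 and 0%, 1.40%, 0.463% and 8.95% in WT1 to WT4, and unthinned 28.2%, 55.6% and 34.4% against 1.71%, 2.80%, 1.85% and 21.7%. The 0 in WT1, of 175 cells, allows a share of up to 1.71% of cells with a UMI among 3000, by counting error only, and is no limit on cells that express the gene. Median UMIs in Dntt-gated cells were 8390, 8908 and 9615 in KO1 to KO3 and 10421, 10972, 11628.5 and 8213.5 in WT1 to WT4.

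As background, Ccr2 was seen in 3.41%, 2.52% and 1.91% of thinned stem-cell-gated cells in KO1 to KO3 and in 0.783%, 0.357%, 0% and 1.31% in WT1 to WT4, where the 0 of 799 cells in WT3 allows up to 0.375% of cells with a UMI at that depth. Unthinned, the stem-cell-gated shares of WT1 to WT3 were 2.15%, 0.893% and 0.751%, at median depths of 7380, 7545 and 9416 UMIs. In erythroid-gated cells, which only the list B libraries filled, it was seen in 2.44% in KO3 and in 0% in WT4 (0 of 127 cells, which allows up to 2.36% at that depth), and unthinned in 2.44% and 3.15%, at median depths of 9652 and 22994 UMIs. The Dntt-gated levels of WT1 to WT3 rest on 4, 6 and 5 UMIs of Ccr2, so the 48.2-fold ratio is imprecise, and the part of free RNA in these UMIs was not tested. Csf1r was seen in 17.3%, 12.9% and 7.24% of thinned cells of the Irf8 and granule gate in KO1 to KO3 and in 8.33%, 1.56%, 9.09% and 4.62% in WT1 to WT4, where WT3's share is 3 of 33 cells. Unthinned, it was seen in 59.2%, 47.4% and 31.0% against 33.3%, 15.6%, 18.2% and 15.7%. Its thinned share in the stem-cell gate was 0.593%, 0.686% and 0.319% against 0.783%, 0.714%, 0.250% and 0.159%, in which the labels overlapped.

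Cells with at least 3 of the 8 genes among their 3000 UMIs made up 18% of cells in KO1 (exact 95% interval 16.6% to 19.4%, counting error only), 16.8% in KO2 (14.9% to 18.7%) and 3.57% in KO3 (3.14% to 4.04%). They made up 4.10% in WT1 (3.03% to 5.39%), 1.68% in WT2 (0.996% to 2.64%), 1.37% in WT3 (0.842% to 2.12%) and 1.62% in WT4 (1.37% to 1.91%). KO3 lay below WT1, so the groups overlapped. Unthinned, the shares were 44.7%, 35.4% and 16.2% against 9.90%, 6.42%, 4.95% and 6.49%, without overlap. Of these cells 50.9%, 63% and 50.2% lay in the Irf8 and granule gate in KO1 to KO3 and 52.1%, 22.2%, 20% and 31.2% in WT1 to WT4. In WT2, 44.4% of them were ungated. Inside that gate 51.2%, 48.5% and 18% of cells had at least 3 of the genes in KO1 to KO3 and 26.0%, 6.25%, 12.1% and 13.5% in WT1 to WT4, against 0% to 0.593% of stem-cell-gated cells over the 7 libraries.

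The genes were seen together in a cell more often than their separate frequencies give. Over all 28 pairs and all cells, the number of cells with both genes divided by the number from the product of their frequencies was 1.92, 2.30 and 2.36 in KO1 to KO3 and 5.12, 7.50, 4.46 and 2.66 in WT1 to WT4. Each knockout-labelled library was below each WT-labelled one. Of the 28 pairs 27 were above 1 in all 7 libraries, and Csf1r with Fcgr3 was above 1 in 6. Within the Irf8 and granule gate the ratio was 1.26, 1.30 and 1.51 in KO1 to KO3 and 2.11, 2.24, 2.68 and 2.11 in WT1 to WT4. Inside that gate F13a1 with Ly6c2 had a median ratio over libraries of 4.92 (1.55 to 8.25, 304 cells with both) and F13a1 with Ms4a6c one of 2.41, both above 1 in 7 of 7 libraries. The ratio cannot exceed 1 divided by the frequency of the more frequent gene, and pairs within a library share their cells.

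**Figure D4:**
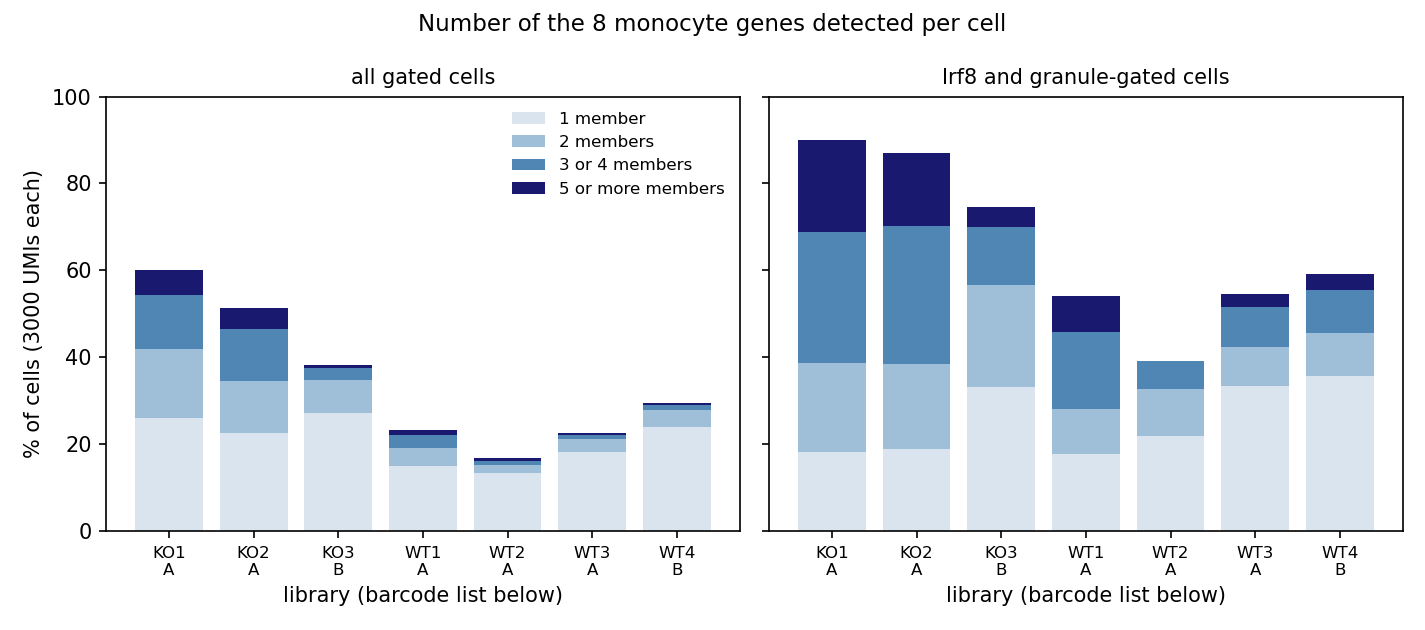
Percent of cells, each thinned to 3000 UMIs, in which 1, 2, 3 or 4, or at least 5 of the 8 genes were seen, as stacked bars per library, over all gated cells (left) and in the Irf8 and granule gate (right). Over all cells the parts for at least 3 genes sum to 18% in KO1 and 16.8% in KO2 and to between 1.37% and 4.10% in the other 5 libraries.

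The genes also varied together over gates and libraries. Over 49 points (7 gates in 7 libraries), each gene's log2 level had a Pearson r with the mean of the other 7 of 0.94 for Ms4a6c, 0.90 for Ly6c2, 0.88 for F13a1, 0.86 for Csf1r, 0.85 for Ly86, 0.82 for Fcgr3, 0.81 for Tyrobp and 0.81 for Ccr2. Of 7121 other genes compared, the 8 most like the mean of the members were Hp (r = 0.93), Apba1 (0.87), Gm15987 (0.86), Fes (0.85), Ly6e (0.85), Lgals1 (0.85), Slpi (0.84) and Tspo (0.84). Hp encodes haptoglobin, which binds free haemoglobin, Fes a tyrosine kinase of myeloid cells and Slpi a protease inhibitor. The points share libraries, depth and the gate genes, so the values describe a likeness and carry no p.

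Companion genes of the same biology were read in the same fit over all cells. That fit called 1.11% of all genes in either direction and 0.472% as higher under the knockout label. The lists were written with earlier results of these data known, and nothing is read from their counts. Of 26 other monocyte and macrophage genes tested (27 listed), 3 rose under the knockout label and 0 fell, with 19 above 0 and a median log2 difference of 0.22, against 0.0084 over all genes. Emilin2, an extracellular matrix glycoprotein, stood at 48.3, 34.5 and 32.4 CPM in KO1 to KO3 and at 18.8, 19.7, 17.1 and 14.9 CPM in WT1 to WT4 (log2 1.15, SE 0.14, edgeR adjusted p = 0.012), with every knockout-labelled library higher. Ccl9, a chemokine of myeloid cells, stood at 140, 152 and 350 CPM against 74.2, 56.3, 68.0 and 144 (log2 1.18, SE 0.14, edgeR adjusted p = 0.012), with KO1 just below WT4. The fractalkine receptor Cx3cr1 stood at 16.1, 16.1 and 4.58 CPM against 8.01, 7.07, 6.85 and 2.55 (log2 1.05, SE 0.15, edgeR adjusted p = 0.019), with list B lower under both labels. Plac8, the most abundant of the list, did not pass (log2 1.26, SE 0.28), nor did Zeb2 (0.69, SE 0.22) or the lysozyme gene Lyz2 (-0.22, SE 0.26).

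Among 20 growth factor receptors and signalling genes 1 rose, Csf2rb, the common beta chain of the receptors for GM-CSF, IL-3 and IL-5, and 0 fell, with a list median of 0.068. It stood at 64.9, 37.8 and 28.9 CPM in KO1 to KO3 and at 23.2, 19.1, 19.9 and 16.2 CPM in WT1 to WT4 (log2 1.17, SE 0.19, edgeR adjusted p = 0.030), without overlap. The most abundant of these, Flt3 (log2 -0.75, SE 0.19), Kit (-0.40, SE 0.16) and the phosphatase gene Inpp5d (-0.14, SE 0.17), did not pass, and Flt3 was lower in each knockout-labelled library. Among 10 chemokine receptors Cx3cr1, counted in both lists, rose and Ccr9, a receptor of lymphoid progenitors, fell, with a list median of 0.16. Ccr9 stood at 1.02, 1.27 and 0.927 CPM in KO1 to KO3 and at 3.56, 2.98, 7.11 and 12.9 CPM in WT1 to WT4 (log2 -2.61, SE 0.44, edgeR adjusted p = 0.031). Ccr1 had a larger difference that did not pass (29.5, 15.9 and 10.6 CPM against 1.11, 1.39, 1.01 and 4.42; log2 3.26, SE 0.65), and Cxcr4, the most abundant, had one of 0.30 (SE 0.13).

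Of 10 monocyte fate transcription factors 1 rose and 0 fell, with 8 above 0 and a median of 0.49. This was Irf8 (181, 230 and 110 CPM against 116, 79.8, 60.3 and 61.1; log2 1.14, SE 0.22, edgeR adjusted p = 0.041), which is also a gate gene. KO3 lay under WT1. Runx1 (log2 0.021, SE 0.21), Zeb2 and Egr1 (0.50, SE 0.31), the most abundant of the list, did not pass. By edgeR 0 genes passed in each of the other 4 lists: ITAM adaptors and Fc receptors (13 tested, median 0.53), MD-1 partners and Toll-like receptors (8 tested, median -0.16), close relatives of the members (15 tested, median 0.59) and mature macrophage markers (5 of 10 tested, median 0.53). At an unadjusted p under 0.05 these lists held 5, 5, 9 and 1 genes, beside 19.1% of all genes tested, and DESeq2 called 2, 2, 6 and 1, beside 5.86% of all genes. Lyn (0.061, SE 0.12), Syk (-0.12, SE 0.13) and Fcer1g (0.60, SE 0.22) were the most abundant of the ITAM list, and Cd180 (-0.73, SE 0.22), Myd88 (0.48, SE 0.14) and Tlr4 (-0.25, SE 0.20) those of the MD-1 list. Cd180, the partner of Ly86, was lower in every knockout-labelled library, at 15.9, 13.2 and 21.2 CPM against 23.0, 38.9, 25.5 and 23.5. Flt3, Ly6e (log2 0.74, SE 0.16) and Kit led the relatives, and Slc40a1, Axl and Vcam1, all under 10 CPM in each library, led the macrophage markers.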

How the data were processed

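The authors deposited, for each of the 7 libraries, a filtered matrix of whole-number UMI counts per gene and cell made, per the file headers, with Cell Ranger 7.0.0. The genome mm10 and Seurat 4.4.0 are named in the submitters' processing notes. Cells with at least 1000 UMIs, 500 genes and at most 10% mitochondrial UMIs were kept, and doublets were not removed (leaving out the 5% of cells with the most UMIs is an alternative). Counts were summed per library, over all kept cells and within gates, and fitted with edgeR 4.0.16 in R 4.3.3 (quasi-likelihood test, TMM factors, filter on low counts, Benjamini-Hochberg adjustment) with the barcode list as covariate; the SE is the log2 difference divided by the square root of its F value. DESeq2 1.42.0 was an alternative. On simulated counts, 100% of 200 genes changed by log2 2 among 14389 were recovered, with 3.38% false calls. The simulation gave all genes the same dispersion and changed only genes of higher count. Its recovery therefore does not carry over to genes that vary more between libraries. Ccr2, with a log2 difference of 2.95 (SE 0.53), was not called in the measured counts. Gating and co-detection used cells thinned to 3000 UMIs (2000 as an alternative), leaving out 45 to 169 cells per library. Levels within gates used all UMIs of the gated cells, not thinned, so cells of high UMI count weigh more in them. These steps were run in Python 3.11.15 with numpy 2.4.6, scipy 1.17.1 and pandas 2.3.3. Shares of cells are given without a test because Irf8, a gate gene, itself passed the test between the labels, a departure from the plan. Each library's count total and cells limit its precision, and intervals cover counting error only.

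The members, gates, companion lists and the barcode-list covariate were chosen with earlier results of these data known. Named genes are the members, B4galt1, the called genes and the 3 most abundant of each companion list, and the 8 genes most like the mean of the members (log2 of the level plus 0.1, levels of at least 0.2 per 10000). Gate shares held equal used 7 gates with at least 14 cells in every library plus 1 group of the others. Promoters and coordinates came from RefSeq and GENCODE for GRCm38. Csf1r and Tyrobp: promoter not used here. Same-numbered libraries had correlations of their deviations of 0.60, 0.81 and -0.44, so the numbers do not pair them. Each sample had its own file, and 0 columns of other samples were left unused.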

Additional observations from a re-analysis of the deposited data

Results flagged for a closer look

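With Dixon's gap test on the 4 WT-labelled libraries, at which chance picks about 1 in 20 groups and 25 groups were tested, WT1 stood apart 4 times as the highest. Its Csf1r level in the Irf8 and granule gate was 0.385 UMIs per 10000, its F13a1 level in the stem-cell gate 0.144 and its Fcgr3 level there 0.00903. The last rests on 4 UMIs, against 2, 4 and 13 in WT2 to WT4, and the first and second on 63 and 64 UMIs. Its share of cells with at least 3 of the 8 genes was 4.10%.

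The ratio between the labels had a different sign in the barcode lists for Ly6c2 and, by its point value only, for Fcgr3. Ly6c2 had a log2 ratio of 2.81 in list A, where KO1 and KO2 were above WT1 to WT3, and of -0.72 in list B. Fcgr3 had 2.43 in list A and -0.030 in list B, where the counting interval of the ratio over all kept cells (-0.26 to 0.14) held 0. The difference between the lists was not tested, since list B holds 1 library per label.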

How the results depend on the processing

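Over all cells, the 162 genes called became 0 without the list covariate (697 at an unadjusted p under 0.05, edgeR), 362 in list A alone, 856 with DESeq2, 547 without the filter on low counts and 2277 with the replicate number as a block (replicate block); with 1 library left out they ranged from 16 (without WT3) to 349 (without KO3), with 91 without KO1, 58 without WT1, 63 without WT2 and 348 without WT4. The 2 members called became 0, 4, 6 and 7 without the covariate, in list A alone, with DESeq2 and with the block, and 1 to 5 with 1 library left out. The numbers do not pair the libraries, so the block values are no test of the effect. Within gates edgeR called 0 genes in each without the covariate (278, 109, 116, 147, 48 and 28 at an unadjusted p under 0.05 in the order below). The Irf8 and granule gate went from 13 to 115 (list A), 317 (no filter), 82 (DESeq2), 1084 (block) and 0 to 127 with a library left out (0 without WT3, 897 unadjusted). Early Mpo went from 22 to 176 (no filter), 64 (DESeq2), 163 (block) and 11 to 63, and Dntt from 27 to 100 (no filter), 119 (block) and 15 to 33. The stem-cell gate went from 20 to 238 (no filter), 69 (DESeq2), 344 (block) and 5 to 46. Flt3 went from 5 to 17 (list A), 43 (no filter), 36 (block) and 0 to 19 (0 without WT3, 230 unadjusted), and ungated from 1 to 6 (list A), 38 (no filter), 3 (block) and 1 to 8. The causes were not tested. Csf1r and Ms4a6c were not called over all cells without the covariate, nor Ms4a6c without WT3 (log2 1.57). All 136 member differences over all cells under the alternatives listed at the start stayed above 0, as did 72 in the Dntt gate, 15 of which lost a call; signs changed in 4 of 96 in the Irf8 and granule gate (Fcgr3), 1 of 72 in the early Mpo gate, 7 of 84 in the stem-cell gate, 1 of 58 in the Flt3 gate and 16 of 83 in ungated cells. With a library left out, the summed level was 10.2 to 13.2 in the Irf8 and granule gate and 0.691 to 0.826 in the stem-cell gate. The share of cells with at least 3 members differed by 10.6 percentage points between the labels (7.97 to 15.2), and the co-detection ratio had a median over libraries of 2.66 (2.51 to 3.56). Plain totals moved the median of all genes to -0.084. Depth limits Csf1r and Fcgr3 most, with as few as 80 and 34 UMIs in a library.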

Other observations

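Cells gated on T and NK genes numbered 133 in KO1, 245 in KO3 and 379 in WT4, with too few in the other libraries. They met the gate mainly through Nkg7, which gave 97.1%, 93.2% and 84.2% of the marker UMIs, while the Cd3 genes gave 0, 1 and 13 UMIs. The genes highest in them relative to all gated cells were Fcnb, Elane and Wfdc21 in list A and Elane, Ms4a3 and S100a8 in list B. Their median granule sum was 92, 5 and 2 UMIs in KO1, KO3 and WT4. The 8 monocyte genes summed to 14.3, 5.09 and 5.69 UMIs per 10000 in these cells, under the Irf8 and granule gate of the same libraries. Ly6c2 and Fcgr3 were above that gate, while the other members were under it. Ly6c2 stood at 8.53, 1.08 and 2.39 against 4.21, 0.515 and 1.91, and Fcgr3 at 0.968, 0.326 and 0.383 against 0.185, 0.0430 and 0.151. The cells gated on T and NK genes held 24.3%, 25.4% and 40.9% of the Ly6c2 UMIs of these libraries. The gate is therefore not named as a cell type.

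Ungated cells of list A were led by S100a4, Lyz2, S100a6, Plcb1, Cybb, Apoe, Ctss, Mpeg1 and Emilin2, and those of list B by Igkc, Jchain and Apoe. The 8 monocyte genes summed to 10.6 and 11.1 UMIs per 10000 in ungated cells of KO1 and KO2 and to 5.44, 21.4 and 5.07 in WT1 to WT3, against 0.821 in KO3 and 1.06 in WT4.

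Ccr2 lies on chromosome 9 with its start 133 kb from that of Ccr1 and 424 kb from that of Ccr9, genes chosen here after their values were seen. Ccr1 had a log2 ratio of 4.28 in list A and 1.26 in list B, and Ccr9 fell by 2.61 on the log2 scale over all libraries. Ms4a3, another MS4A gene, stood at 751, 144 and 70.0 CPM in KO1 to KO3 and at 62.3, 27.0, 16.1 and 55.4 CPM in WT1 to WT4, without overlap and without passing the test (log2 2.84, SE 1.10).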
